A study of Mus musculus with 52 samples.

Results

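The transcripts of 10 genes of the BCL2 family were followed in mouse CD8+ T cells before and after activation. The genes are the rows of the deposited count table named Bcl2, Bcl2l1, Mcl1, Bcl2a1b, Bax, Bak1, Bbc3, Bcl2l11, Pmaip1 and Bid, 10 of 14626 genes in all, and each name matched 1 row. Proteins of this family decide whether the outer membrane of the mitochondrion stays closed or is opened, which releases cytochrome c and starts the caspases that dismantle the cell. BCL2, BCL-XL (Bcl2l1), MCL1 and A1 (Bcl2a1b) keep it closed, BAX and BAK (Bak1) form the pores, and the BH3-only proteins PUMA (Bbc3), BIM (Bcl2l11), NOXA (Pmaip1) and BID neutralise the guardians or activate the pore formers. In T cells, BCL2 and MCL1 are known to keep resting cells alive, BCL-XL is known to be induced by activation, and BIM and PUMA are known to remove cells that lose antigen or cytokine support.

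All cells were CD8+ T cells from spleens of T cell receptor-transgenic OT-I mice, whose receptor recognises a peptide of ovalbumin, and the study asks how wells coated with the chemokine CCL21 and the adhesion molecule ICAM1 (called SIN in the labels) alter T cells that were activated in different ways. Day 0 cells (9 libraries) were freshly isolated and received no treatment. Bead-activated cells met beads carrying antibodies to CD3 and CD28, at 1 bead per cell, with interleukin 2 at 100 U/ml, and were taken at day 3 (5 coated, 3 uncoated libraries) and day 7 (4 coated, 5 uncoated). DC-activated cells met dendritic cells (DCs) of C57BL/6 mice that had been loaded with the ovalbumin peptide, at 3 T cells per DC, and were taken at day 3 (9 coated libraries of 5 M numbers, 7 uncoated of 4) and day 4 (5 coated, 5 uncoated). The M number in a title (1 to 10) was used as the replicate, and DC titles also carry 30 or 120. All DC libraries of day 4 carry 120, and those of day 3 carry 30 or 120. The labels explain neither the M number nor 30 and 120, and nothing states whether M numbers are separate animals. DC libraries of day 3 with the same M number and coating were summed, which left 45 samples of 52 libraries in 9 groups.

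Libraries held 382924 to 4641802 counts. Levels are in CPM, that is, counts scaled to a common library size, with TMM factors that correct for differences in RNA composition. The reads come from the 3′ ends of transcripts. Levels are compared between samples for 1 gene and not between genes. A call means an adjusted p under 0.05 in edgeR's quasi-likelihood test (Benjamini-Hochberg, all genes tested), and ± after a log2 fold change is its standard error. Bcl2a1b had 203 counts over all libraries and at most 18 in any of them, and it was tested in 3 of 15 comparisons only. It is also nearly identical to Bcl2a1a and Bcl2a1d, so its counts may be shared with them and are uncertain.

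The CD8 T cell markers were present in every group. The day 0 libraries also held transcripts of other spleen cells: the summed level of 7 erythroid markers was 26529 to 138383 CPM there and 7.13 to 1192 CPM in the activated samples, that of 6 MHC class II genes was 11232 to 20680 against 41.3 to 1452 CPM, and that of 7 B cell markers was 3977 to 8029 against 268 to 2519 CPM. None of these markers was at 0 in all day 0 libraries. In some activated groups the B cell sum did not come from all its genes. Cd79a was at 0 in all 5 coated DC day 4 samples, whose sums were 2060 to 2519 CPM. Cd79a, Ms4a1 and Pax5 were at 0 in all 4 coated bead day 7 samples, with sums of 464 to 552 CPM. How much of a member's day 0 level comes from other spleen cells was not tested. In these bulk samples, fewer cells of a type and less RNA per cell cannot be told apart.

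**Figure D1:**
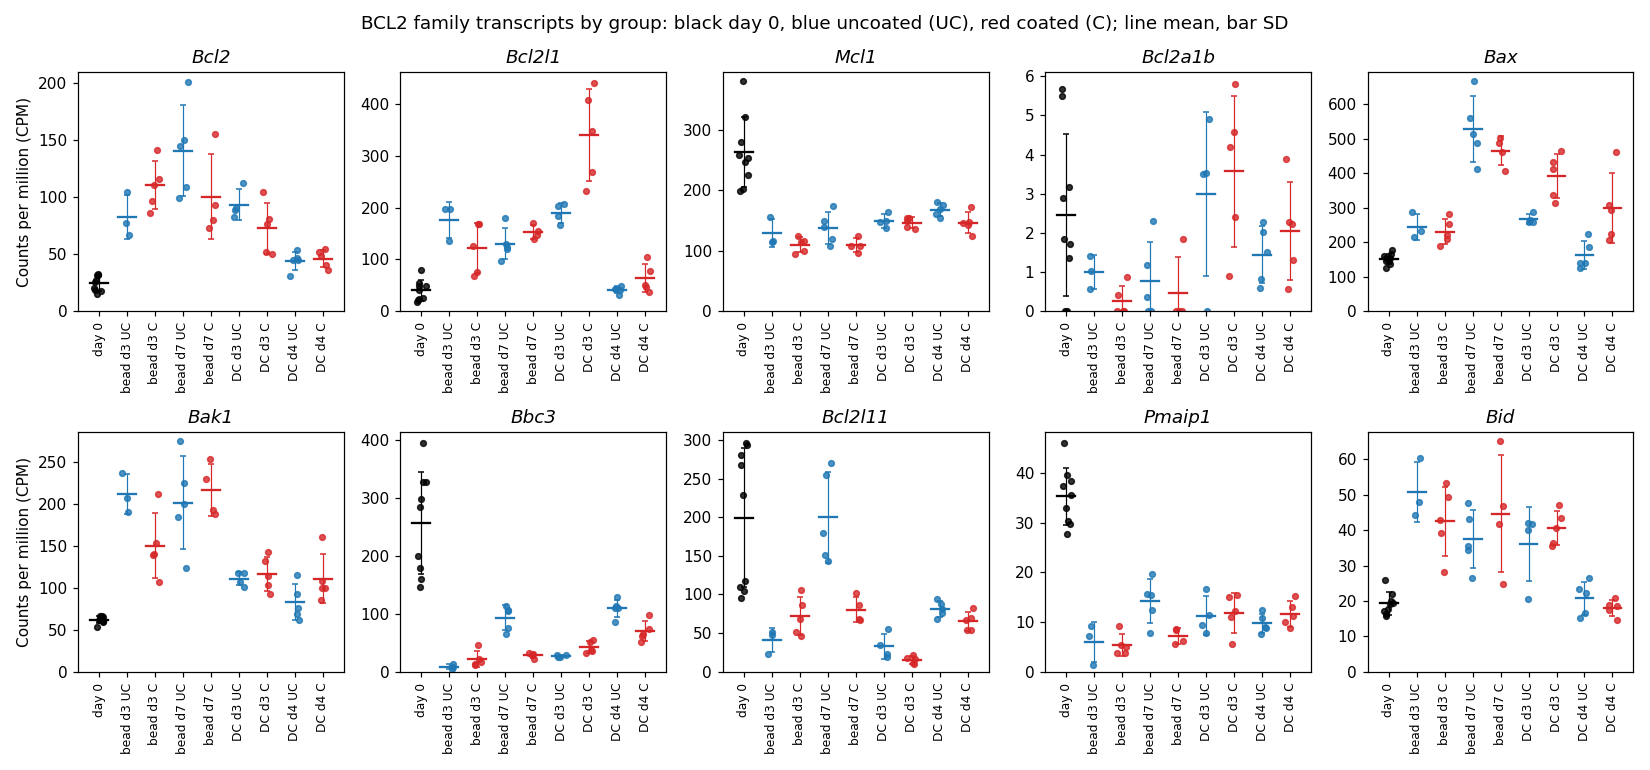
Level of each of the 10 members (CPM, linear axes from 0) in the 9 groups; each point is a sample, the line is the group mean and the bar the SD. Bbc3, Pmaip1 and Mcl1 are highest at day 0, with group means of 258, 35.3 and 263 CPM, Bcl2l1 is highest in coated DC-activated cells at day 3 (339 CPM), and Bcl2 and Bax have their highest means in uncoated bead-activated cells at day 7 (140.4 and 527 CPM).

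Relative to day 0, activated cells in uncoated wells held more Bcl2 at every time, more Bcl2l1, Bax and Bid at 3 of 4 times, and less Mcl1, Bbc3 and Pmaip1 at every time. At bead day 3, 5 of 9 tested members were higher and 4 lower, where 64.8% of all genes tested were called, 29.9% higher and 35% lower. At bead day 7, 5 were higher and 3 lower (60.9% of all genes called, 30.1% higher and 30.8% lower). At DC day 3, 5 were higher and 4 lower (73.9%, 36.3% higher and 37.5% lower), and at DC day 4, 2 and 4 (54.9%, 26% higher and 28.9% lower). Called members were thus 100%, 88.9%, 100% and 66.7% of those tested at the 4 times; whether these shares differ from those of all genes was not tested. The 4 comparisons share the same 9 day 0 samples, so they are not independent.

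Among the guardians, Bcl2 ran from 15.6 to 32.9 CPM at day 0 (median 25.9). It was 104, 77 and 66.5 CPM in the uncoated bead samples of day 3, 149.5, 99, 145, 109 and 200.1 CPM at bead day 7, and 88.7, 82.1, 90.3 and 112 CPM at DC day 3. None of these overlapped with day 0. The log2 fold change was 1.68 ± 0.22 at bead day 3 (adjusted p = 3.81e-06), 2.46 ± 0.19 at bead day 7 (adjusted p = 3.7e-09) and 1.88 ± 0.17 at DC day 3 (adjusted p = 1.82e-08). At DC day 4 the values, 46.6, 44.6, 30.9, 53.3 and 45.1 CPM, overlapped with day 0, and the change was 0.78 ± 0.18 (adjusted p = 0.00108). A replicate block by M number ended that call (log2 0.41, adjusted p = 0.0656).

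Bcl2l1, the gene of BCL-XL, was 17.4 to 80.4 CPM at day 0 (median 41.7), 136, 197 and 196 CPM at bead day 3, 125, 179, 97.9, 129 and 121 CPM at bead day 7 and 184, 202, 206 and 166 CPM at DC day 3. All activated samples of these groups lay above all day 0 samples, with log2 fold changes of 2.02 ± 0.32, 1.63 ± 0.27 and 2.16 ± 0.27 (adjusted p = 6.89e-05, 6.57e-05 and 2.69e-06). At DC day 4 it lay within the day 0 range, at 30.8, 41.5, 42.5, 43.6 and 49.8 CPM (log2 -0.037 ± 0.28, adjusted p = 0.922). Over all 9 groups Bcl2l1 spanned 3.07 on the log2 scale between the highest and lowest group mean. The coated DC samples of day 3, as summed, overlapped with no other group's. Their single libraries went down to 198 CPM, and uncoated single libraries of day 3 reached 285 CPM.

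Mcl1, a guardian with a short-lived protein, moved the other way. Its day 0 levels of 198 to 381 CPM (median 254) lay above every sample of the 4 uncoated activated groups, which ranged from 108 to 175 CPM at bead day 7 to 154 to 181 CPM at DC day 4. The log2 fold change was -1.07 ± 0.20 at bead day 3, -0.95 ± 0.16 at bead day 7, -0.82 ± 0.16 at DC day 3 and -0.67 ± 0.14 at DC day 4 (adjusted p = 0.000178, 6.58e-05, 0.000135 and 0.000535). Among the activated groups Mcl1 had group means between 109 and 168 CPM. Bcl2a1b had group means of 0.261 to 3.57 CPM and was too low to be tested against day 0.

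The pore formers were higher than at day 0 at 3 times (Bax) or all 4 (Bak1). Bax was 126 to 178 CPM at day 0, 232, 214 and 288 CPM at bead day 3, 560.0, 666, 411, 487 and 513 CPM at bead day 7 and 263, 258, 287 and 258 CPM at DC day 3. These 3 groups did not overlap with day 0, and the changes were 0.65 ± 0.13, 1.78 ± 0.12 and 0.81 ± 0.10 (adjusted p = 0.000355, 7.68e-10 and 1.22e-06). At DC day 4 Bax had 140.4, 185, 225, 125 and 139.5 CPM and a change of 0.077 ± 0.14 (adjusted p = 0.656). Bak1 was 52.7 to 66.3 CPM at day 0 over 9 samples and rose by 1.73 ± 0.12 at bead day 3, 1.69 ± 0.14 at bead day 7, 0.84 ± 0.11 at DC day 3 and 0.38 ± 0.14 at DC day 4 (adjusted p = 2.26e-09, 1.28e-08, 1.08e-06 and 0.0239). The DC day 4 call was lost without the uncoated sample of M number 8 (adjusted p = 0.0728), which also held the most MHC class II (1452 CPM) and erythroid transcripts (1192 CPM) of the activated samples.

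The BH3-only genes split. Bbc3, the gene of PUMA, had 146 to 395 CPM at day 0 (median 284) and fell to 4.56, 8.56 and 13.5 CPM at bead day 3 and 26.3, 28.4, 29.2 and 25.3 CPM at DC day 3. It was 75.8, 64.4, 106, 114 and 106 CPM at bead day 7 and 114, 109.9, 110.1, 86.6 and 128 CPM at DC day 4, between the day 3 and day 0 levels. Each uncoated group lay wholly below day 0. The log2 fold change was -5.0 ± 0.48 at bead day 3, -1.49 ± 0.25 at bead day 7, -3.25 ± 0.29 at DC day 3 and -1.26 ± 0.23 at DC day 4 (adjusted p = 6.98e-07, 6.62e-05, 6.32e-08 and 0.000226). The bead day 3 fall was the steepest change of any member in these comparisons and rests on 6 to 13 counts per sample.

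Bcl2l11, the gene of BIM, was also lower at 3 of the 4 times. It was 95.4 to 296 CPM at day 0 (median 229), 51.9, 47.1 and 22.9 CPM at bead day 3, 55.6, 19.6, 23.2 and 34 CPM at DC day 3, 152, 144, 269.7, 179.9 and 255 CPM at bead day 7 and 75.5, 68.2, 94.2, 87.7 and 80.9 CPM at DC day 4. It fell by 2.31 ± 0.51 at bead day 3, by 2.54 ± 0.45 at DC day 3 and by 1.32 ± 0.33 at DC day 4 (adjusted p = 0.00157, 0.000176 and 0.00297), and had a change of -0.010 ± 0.32 at bead day 7 (adjusted p = 0.981). The day 0 samples stood in separate ranges by M number: 229 to 296 CPM in M numbers 1 to 5 and 95.4 to 117 CPM in M numbers 6, 7, 8 and 10. For Bbc3 the ranges were 284 to 395 and 146 to 200 CPM. All bead samples and all DC samples of day 3 carry M numbers 1 to 5 and all DC samples of day 4 carry 6 to 10. Against the day 0 samples of their own M numbers alone, Bcl2l11 was lower at bead day 7 (log2 -0.52, adjusted p = 0.0178) and less far below day 0 at DC day 4 (-0.41, adjusted p = 0.00711). Bbc3 at DC day 4 was then -0.65 (adjusted p = 0.000256).

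The promoters of Bbc3 and Bcl2l11 are shown because both genes were lower at day 3 of both activations and higher at the later times than at day 3, and both hold the forkhead motif GTAAACA, the letters that FOXO proteins are known to bind. The windows run from 250 bases before to 50 bases after an annotated transcript start, from RefSeq on GRCm38.p6, 5′ to 3′ on the gene's strand. Capitals mark the motif, which stands on the opposite strand in Bbc3, where it reads TGTTTAC. The Bbc3 window (chr7:16310011-16310310, plus strand) is 1 of 3 for that gene, and the Bcl2l11 window (chr2:128125788-128126087, plus strand) is 1 of 2.
Bbc3: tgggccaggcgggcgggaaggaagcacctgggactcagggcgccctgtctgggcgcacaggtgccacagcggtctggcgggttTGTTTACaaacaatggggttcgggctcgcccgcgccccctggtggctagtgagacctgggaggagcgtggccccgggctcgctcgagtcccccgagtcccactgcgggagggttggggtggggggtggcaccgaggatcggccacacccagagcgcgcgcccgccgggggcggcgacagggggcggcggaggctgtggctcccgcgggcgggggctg
Bcl2l11: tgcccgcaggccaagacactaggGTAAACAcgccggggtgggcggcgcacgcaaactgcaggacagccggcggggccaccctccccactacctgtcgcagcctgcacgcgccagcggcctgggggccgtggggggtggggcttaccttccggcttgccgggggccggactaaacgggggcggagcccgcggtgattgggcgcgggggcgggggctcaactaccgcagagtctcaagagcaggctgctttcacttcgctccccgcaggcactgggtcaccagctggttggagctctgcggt

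The motif begins 167 bases before the start in Bbc3 and 227 bases before it in Bcl2l11. On either strand it was found in 2 of 14 windows of 9 members and in 1199 of 32851 windows of all genes (3.65%). No window was given for Pmaip1. Of the other letters searched on both strands, the E-box CACGTG was found for Bax and Bbc3 (7.15% of all windows), TGATGNAA for Bcl2a1b (3.97%), the NF-kB motif for Bbc3 and Bcl2l1 (8.46%), the p53 half-site for Bax (8.36%) and TTCNNNGAA, the letters of STAT sites, for none of the 9 (8.3%). In the third Bbc3 window the E-box lies 64 bases before the start. These matches describe letters only. By the annotation of GENCODE vM21 on GRCm38 (mm10), Bbc3 lies at chr7:16308393-16318205 on the plus strand and Bcl2l11 at chr2:128126038-128162547 on the plus strand, and both encode proteins.

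Pmaip1, the gene of NOXA, a BH3-only protein that binds MCL1, had 27.7 to 45.9 CPM at day 0 and lay below that range in every uncoated group, for example at 9.12, 1.43 and 7.27 CPM at bead day 3 and 7.61, 8.97, 12.5, 10.9 and 8.79 CPM at DC day 4. It fell by 2.45 ± 0.32, 1.33 ± 0.20, 1.77 ± 0.21 and 1.93 ± 0.18 at bead day 3, bead day 7, DC day 3 and DC day 4 (adjusted p = 3.69e-06, 1.7e-05, 4.12e-07 and 2.75e-08). At bead day 3 this rests on 1 to 16 counts per sample. Bid, which links death receptors to mitochondria when caspase 8 cuts it, was the BH3-only gene that rose. It was 19.3 ± 3.17 CPM at day 0 (SD, n = 9) and rose by 1.36 ± 0.19 at bead day 3, 0.94 ± 0.17 at bead day 7 and 0.94 ± 0.18 at DC day 3 (adjusted p = 8.21e-06, 0.000129 and 0.000163). At DC day 4 its change was 0.060 ± 0.18 (adjusted p = 0.931).

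**Figure D2:**
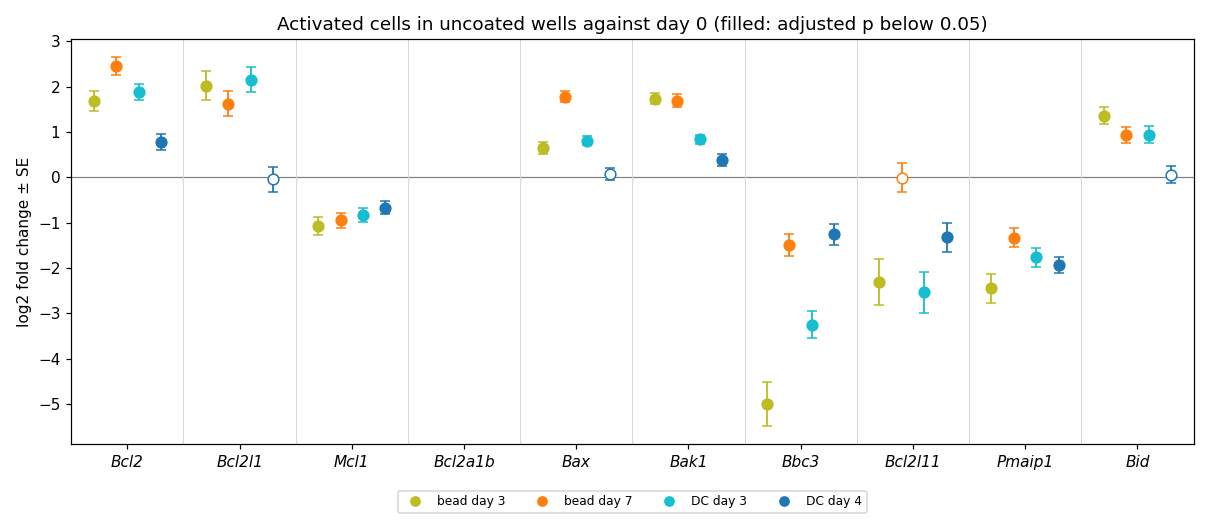
Log2 fold change of each tested member in uncoated activated cells against day 0, with its standard error; filled points have an adjusted p below 0.05 and open points do not. Bcl2, Bcl2l1, Bax, Bak1 and Bid lie above 0 at day 3 of both activations, and Mcl1, Bbc3, Bcl2l11 and Pmaip1 lie below 0, with Bbc3 at -5.0 at bead day 3 and -3.25 at DC day 3.

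Over the whole design, most neighbouring groups in the order of a gene's mean level overlapped. For Bcl2, Bcl2a1b, Bax, Bak1 and Bid every pair of neighbours did, and for Bcl2l1 every pair but the first. For Mcl1 and Pmaip1 only day 0, the highest group, stood clear of the next. For Bcl2l11 the order began with uncoated bead day 7 and day 0, which overlapped. Day 0 did not overlap with its next group, uncoated DC day 4, nor coated DC day 4 with its next, uncoated bead day 3. Groups further down the order crossed both limits. Coated bead day 3 reached 106 CPM, above the lowest day 0 value of 95.4 CPM. Uncoated DC day 3 reached 55.6 CPM, above the lowest coated DC day 4 value of 53.4 CPM. For Bbc3 the order began with day 0, then after a gap uncoated DC day 4 and uncoated bead day 7, which overlapped. Coated DC day 3, from 33.1 CPM, did not overlap with its next group, coated bead day 7. Coated bead day 3, further down, reached 45.5 CPM.

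At the later time, Bbc3 and Bcl2l11 were higher than at day 3 in both activations. From bead day 3 to bead day 7 in uncoated wells, 4 of 9 tested members rose and 0 fell, where 22.7% of all genes were called and 11.9% were higher. Bbc3 rose by 3.48 ± 0.34 (adjusted p = 0.000133), Bcl2l11 by 2.28 ± 0.33 (adjusted p = 0.00192), Bax by 1.11 ± 0.17 (adjusted p = 0.00182) and Bcl2 by 0.75 ± 0.25 (adjusted p = 0.0456), with the sample values given above. For Bbc3, Bcl2l11 and Bax the days did not overlap. The Bcl2 call ended under a replicate block by M number (adjusted p = 0.067), without uncoated day 7 M numbers 3 and 4 together (adjusted p = 0.0793) and when any of 6 of the 8 samples was left out (adjusted p up to 0.185). Pmaip1 had a change of 1.11 ± 0.44 (adjusted p = 0.0867) and Bcl2l1 one of -0.44 ± 0.20 (adjusted p = 0.128).

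From DC day 3 to DC day 4, compared among libraries with 120 in the title, Bbc3, Bcl2l11 and Mcl1 rose and Bcl2, Bcl2l1, Bax and Bid fell. These are 3 and 4 of 9 tested members, where 61% of all genes were called, 30.6% higher and 30.4% lower. Bbc3 had 112 ± 15.4 CPM at day 4 (SD, n = 5) and 20.4 ± 5.75 CPM at day 3 (n = 4), on factors fitted over single libraries, and rose by 2.47 ± 0.17 (adjusted p = 4.47e-09). Bcl2l11 rose by 1.62 ± 0.23 (adjusted p = 3.98e-05). For both genes the days did not overlap. Bcl2l1 fell by 1.88 ± 0.16 (42.4 ± 6.9 against 152 ± 36.7 CPM, adjusted p = 6.69e-08) and Bcl2 by 1.34 ± 0.15 (adjusted p = 1.26e-06), also without overlap. Bid fell by 0.72 ± 0.21 (adjusted p = 0.00593), Bax by 0.50 ± 0.15 (adjusted p = 0.0108), and Mcl1 rose by 0.35 ± 0.12 (adjusted p = 0.0171), with days that overlapped. The days carry different M numbers, so day and M number cannot be told apart. When each day was set against the day 0 samples of its own M numbers, the difference was 3.32 for Bbc3, 2.95 for Bcl2l11, -2.21 for Bcl2l1 and -2.03 for Bcl2 (adjusted p at most 0.00261). For Mcl1 and Bax the adjusted p was then 0.0702 and 0.0619.

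Between DCs and beads at day 3 in uncoated wells, 1 of 9 tested members was higher after DCs and 1 lower (25.1% of all genes called, 11.4% higher and 13.8% lower). The activations differ in stimulus and in interleukin 2 together. Bbc3 was higher after DCs, at 26.3, 28.4, 29.2 and 25.3 CPM against 4.56, 8.56 and 13.5 CPM, by 1.68 ± 0.29 (adjusted p = 0.00043). Bak1 was lower after DCs, at 101, 117, 118 and 107 CPM against 207, 189.7 and 237 CPM, with a log2 difference of -0.99 ± 0.11 (adjusted p = 5.14e-06). The groups overlapped for neither gene. Differences for Bcl2, Bcl2l1, Mcl1 and Bax were 0.11 ± 0.16, 0.073 ± 0.14, 0.17 ± 0.13 and 0.078 ± 0.10 (adjusted p = 0.665, 0.747, 0.375 and 0.635). The values differed by title number: against beads, DC libraries with 30 alone had lower Bcl2 (-0.80, adjusted p = 0.0142), higher Bcl2l1 (0.52, adjusted p = 0.0188) and higher Bax (0.42, adjusted p = 0.0244). Bid had -0.47 ± 0.19 (adjusted p = 0.0886) and was called lower after DCs in libraries with 120 alone (-0.60, adjusted p = 0.0465).

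Among DC-activated cells at day 3, libraries with 120 in the title held more Bcl2 and less Bcl2l1, Bcl2a1b and Bcl2l11 than libraries with 30. These are 1 higher and 3 lower of 10 tested members, where 11.3% of all genes were called, 5.69% higher and 5.6% lower, in a fit with coating and M number over 16 libraries. Bcl2 had 122, 58.8, 84 and 91.3 CPM in coated and 119, 82.1, 110.5 and 132 CPM in uncoated libraries with 120. With 30 it had 88.6, 37.8, 49.7, 71.3 and 67.2 CPM in coated and 53.7, 35.2 and 58.1 CPM in uncoated libraries. Bcl2 was higher with 120 in 7 of 7 pairs of the same M number and coating (log2 0.24 to 1.64), and the fitted change was 0.85 ± 0.14 (adjusted p = 0.000419). The pairs come from M numbers 1, 2, 4 and 5 only, and all but M number 2 occur with both coatings. The 7 pairs may therefore not be independent. Bcl2l1 was 198, 349, 290.5 and 199 CPM coated and 126, 202, 157 and 124 CPM uncoated with 120. With 30 it was 238, 539.9, 403, 339 and 301 CPM coated and 232, 285 and 251 CPM uncoated. It was lower with 120 in 7 of 7 pairs (log2 -1.02 to -0.22), with a change of -0.62 ± 0.088 (adjusted p = 6.36e-05).

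Bcl2a1b was lower with 120 in 7 of 7 pairs, with a log2 change of -2.56 ± 0.42 (adjusted p = 0.000282), at means of 0.907 ± 0.822 CPM with 120 and 6.07 ± 3.34 CPM with 30 (SD, n = 8 libraries each). These levels rest on at most 18 counts per library. Bcl2l11 fell by 0.59 ± 0.17 (adjusted p = 0.0295, lower in 6 of 7 pairs), a call that was lost without 7 of the 16 single libraries, without the replicate block and in DESeq2's test. In uncoated libraries alone, Bbc3 was lower with 120 (log2 -1.16, adjusted p = 0.00581) and so was Bax (log2 -0.58, adjusted p = 0.002). In coated libraries alone their changes were 0.23 and 0.031, and none of the 9 members tested there was called (Bcl2 0.49, adjusted p = 0.101; Bcl2l1 -0.40, adjusted p = 0.124). Bcl2a1b was not tested in these. The summed level of dendritic cell markers also moved with the title number: in coated libraries it was 37.5 to 81.2 CPM with 120 and 3.34 to 6.93 CPM with 30, and in uncoated ones 7.37 to 33.2 and 4.93 to 13.5 CPM. Its part in these differences was not tested.

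**Figure D3:**
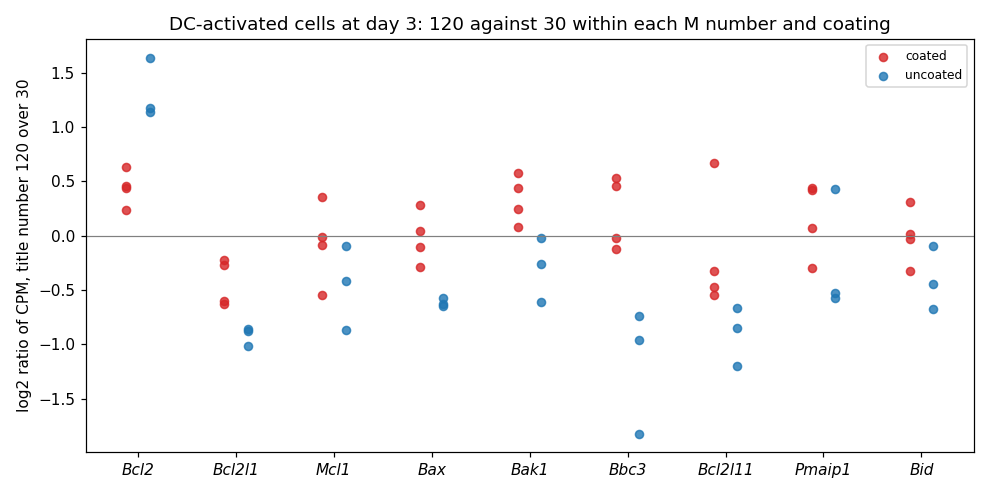
Log2 ratio of CPM in the library with 120 over the library with 30 for each M number and coating of DC-activated cells at day 3 (7 pairs; red coated, blue uncoated), for the 9 members with counts in every library. All 7 points lie above 0 for Bcl2 (0.24 to 1.64) and below 0 for Bcl2l1 (-1.02 to -0.22).

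Few members differed between coated and uncoated wells. In bead-activated cells at day 7 the BH3-only genes Bbc3 and Bcl2l11 were lower on the coating. In DC-activated cells Bax was higher on it at day 3 and day 4 and Bbc3 lower at day 4. No guardian gene passed the main test (summed libraries, no replicate block) in any of the 4 settings. At DC day 3, however, Bcl2l1 was called in 4 of 19 alternative runs, and Bax lost its call in 12 of 19. The fit with title number and M number called Bcl2l1 and Bcl2l11 there and not Bax. The labels name CCL21 and ICAM1 together, so their parts cannot be told apart.

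At bead day 7, coated samples held 22.8, 30.7, 28.7 and 32 CPM of Bbc3 and uncoated ones 75.8, 64.4, 106, 114 and 106 CPM. Every coated sample lay below every uncoated one, and the log2 fold change was -1.71 ± 0.20 (adjusted p = 0.0026, the 3rd smallest p of 8696 genes tested). Bcl2l11 had 66.4, 85.8, 101 and 67.6 CPM in coated and 152, 144, 269.7, 179.9 and 255 CPM in uncoated samples, again without overlap, and fell by 1.32 ± 0.22 (adjusted p = 0.0172). These are 2 of 9 tested members, where 1.78% of all genes were called and 1.41% were called lower. The Bcl2l11 call was lost without coated M number 1, 2 or 5 and without uncoated M numbers 3 and 4 together (adjusted p at most 0.111), while the Bbc3 call passed in each alternative run, those included. Uncoated M numbers 3 and 4 held 488 and 853 CPM of erythroid and 203 and 470 CPM of MHC class II transcripts, against 7.13 to 11.9 and 41.3 to 52.4 CPM in the other uncoated samples. Their B cell markers summed to 1164 and 1342 CPM, against 268 to 822 CPM. That sum was 2060 to 2519 CPM in coated DC day 4 samples, which had no Cd79a counts. Within uncoated bead day 7, M number 3 had the highest Bcl2l11 level and M number 4 the highest Bbc3 level. The part of erythroid, MHC class II and B cell marker transcripts in the result was not tested.

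The other BH3-only genes were less clear at bead day 7. Pmaip1 had 6.22, 5.52, 8.44 and 8.6 CPM in coated and 12.4, 19.7, 15.7, 7.72 and 15.3 CPM in uncoated samples (log2 -0.98 ± 0.30, adjusted p = 0.0891), on 9 to 43 counts per sample. In the authors' deposited table Pmaip1 has an adjusted p of 0.0261 in this comparison, Bbc3 3.19e-05 and Bcl2l11 0.00476. Bid had a change of 0.26 ± 0.25 (adjusted p = 0.581). Bcl2, Bcl2l1 and Mcl1 had -0.49 ± 0.26, 0.22 ± 0.15 and -0.34 ± 0.15 (adjusted p = 0.295, 0.411 and 0.199), and Bax and Bak1 -0.19 ± 0.14 and 0.096 ± 0.19 (adjusted p = 0.456 and 0.807).

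At bead day 3 none of 9 tested members was called in edgeR's test, where 0.1% of all genes were, and 2 had an unadjusted p under 0.05 (Bak1 0.00886 and Bbc3 0.0325). DESeq2's Wald test also called 0. The values of Bbc3 and Bcl2l11 pointed opposite to day 7: Bbc3 had 21.5, 12, 13.9, 17.3 and 45.5 CPM in coated and 4.56, 8.56 and 13.5 CPM in uncoated samples (log2 1.41 ± 0.57, adjusted p = 0.411), and Bcl2l11 106, 68.8, 46.4, 51.5 and 86.5 and 51.9, 47.1 and 22.9 CPM (log2 0.78 ± 0.36, adjusted p = 0.465). Both pairs of groups overlapped. With M number as a replicate block, Bcl2l11 (0.91, adjusted p = 0.0352) and Bak1 (-0.56, adjusted p = 0.0484) were called. Tested directly, the coating effect at day 7 minus that at day 3 was -3.14 ± 0.57 for Bbc3 (adjusted p = 0.0115) and -2.12 ± 0.45 for Bcl2l11 (adjusted p = 0.0249), 2 of 9 tested members where 3.97% of all genes were called and 2.49% were lower. The Bbc3 difference was lost without uncoated day 3 M number 1 (adjusted p = 0.0538). The Bcl2l11 difference was lost without any of the 3 uncoated day 3 samples, without both day 3 samples of M number 2, without coated day 7 M number 5, without uncoated day 7 M numbers 3 and 4 together, and under a replicate block (adjusted p at most 0.0658).

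In DC-activated cells at day 3, Bax was higher on the coating, at 314, 463, 411, 431 and 336 CPM against 263, 258, 287 and 258 CPM. The groups did not overlap, and the rise was 0.53 ± 0.11 (adjusted p = 0.0476). It was the only call among 10 tested members, where 0.39% of all genes were called and 0.166% were higher, and it ended when any 1 of 7 of the 9 samples was left out (adjusted p 0.00285 to 0.872 over all alternatives). As summed, Bcl2l1 and Bbc3 also had groups that did not overlap. Single libraries did overlap for all 3 genes. Coated ones went down to 280 CPM and uncoated ones up to 363 CPM for Bax. These limits were 198 and 285 CPM for Bcl2l1 and 26.7 and 55.5 CPM for Bbc3. How many of all genes separate likewise is not given. Bcl2l1 had 233, 439.9, 407, 346 and 268 CPM in coated and 184, 202, 206 and 166 CPM in uncoated samples (log2 0.82 ± 0.19, adjusted p = 0.151), and Bbc3 35.7, 55.4, 38.4, 52.2 and 33.1 and 26.3, 28.4, 29.2 and 25.3 CPM (log2 0.65 ± 0.16, adjusted p = 0.105). Bcl2l11 went the other way, at 21.6, 9.67, 11, 17 and 17.6 and 55.6, 19.6, 23.2 and 34 CPM with overlap (log2 -1.13 ± 0.33, adjusted p = 0.205). In the authors' deposited table the adjusted p is 0.0076 for Bcl2l11, 0.145 for Bax, 0.213 for Bcl2l1 and 0.553 for Bbc3.

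These day 3 values depended on the title number. Among libraries with 30 the coating change was 0.19 for Bax, 0.52 for Bcl2l1, -0.015 for Bbc3 and -1.62 for Bcl2l11, of which Bcl2l11 was called (adjusted p = 0.0151). Among libraries with 120 the changes were 0.69, 0.79, 1.22 and -0.88, and none was called. Coated samples include a larger share of libraries with 30 (5 of 9) than uncoated ones (3 of 7). With the title number and M number in the fit of single libraries, Bcl2l1 was higher by 0.44 and Bcl2l11 had -1.14 (adjusted p = 0.0322 and 0.00425), while Bax lost its call (0.34, adjusted p = 0.243). Bax also lost it with the title number alone as covariate (0.44, adjusted p = 0.0957) and with all groups in 1 fit (adjusted p = 0.218).

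At DC day 4, Bax had 294, 309, 460.3, 225 and 207 CPM in coated and 140.4, 185, 225, 125 and 139.5 CPM in uncoated samples in the order of M numbers 6 to 10. The groups overlapped, every coated sample exceeded the uncoated sample of its M number, and the rise was 0.86 ± 0.23 (adjusted p = 0.0275). Bbc3 had 74.3, 64.5, 51.9, 62.2 and 97.3 CPM in coated and 114, 109.9, 110.1, 86.6 and 128 CPM in uncoated samples. It was lower in each of the 5 pairs and fell by 0.66 ± 0.15 (adjusted p = 0.00898). These are 1 higher and 1 lower of 9 tested members, where 18.4% of all genes were called, 9.46% higher and 8.92% lower. At this time same-numbered samples were taken as pairs, as their deviations from group means correlated at 0.101 to 0.294. No label states such a pairing, and the test without a block did not use it. With M number as a replicate block, Bak1 (0.42, adjusted p = 0.0166) and Bcl2l11 (-0.34, adjusted p = 0.0299) were called too, beside Bax (0.84, adjusted p = 9.27e-05) and Bbc3 (-0.67, adjusted p = 0.00117). The Bbc3 call was lost with all groups in 1 fit (adjusted p = 0.0723). The Bax call without the block was lost when any of coated M numbers 6 and 7 or uncoated M numbers 6, 9 and 10 was left out (adjusted p at most 0.0705). In the authors' deposited table the adjusted p is 6.55e-05 for Bax and 0.14 for Bbc3.

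The remaining members at DC day 4 had no call. Bcl2l1 was 51.9, 77.7, 105, 47.6 and 37.7 CPM coated and 30.8, 41.5, 42.5, 43.6 and 49.8 CPM uncoated (log2 0.62 ± 0.25, adjusted p = 0.101), with coated M number 8 the highest. Bcl2, Mcl1, Pmaip1 and Bid had 0.056 ± 0.15, -0.21 ± 0.11, 0.25 ± 0.23 and -0.17 ± 0.19 (adjusted p = 0.827, 0.168, 0.473 and 0.569). Between day 3 and day 4, among libraries with 120, the coating effect on Bbc3 changed by -1.88 ± 0.29 (adjusted p = 0.0033, the 3rd smallest p of 9794 genes tested), from higher to lower on the coating. It was the only one of 9 members called (3.35% of all genes, 1.2% lower). It passed in each alternative run, but none of these took the day 3 effect from libraries with the other title number. The day 3 coating change of Bbc3 was 1.22 with 120, which was not called, and -0.015 with the other title number. The move from higher to lower is therefore described for libraries with 120 only. In the day 3 libraries with 120 the summed dendritic cell markers also differed with the coating, at 37.5 to 81.2 CPM coated and 7.37 to 33.2 CPM uncoated, while at day 4 they were 15.4 to 49.9 and 11.3 to 34.2 CPM. Their part in this difference was not tested. The effect on Bax changed by 0.18 ± 0.28 (adjusted p = 0.788). Between DCs and beads at day 3, none of 10 members differed in coating effect by edgeR's test (1.06% of all genes called), although 5 had an unadjusted p under 0.05, with Bcl2l1 at 1.36 ± 0.40 and Bcl2l11 at -1.93 ± 0.53 (adjusted p = 0.0995 and 0.0837). DESeq2's test called 3, namely Bcl2l1, Bax and Bcl2l11.

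**Figure D4:**
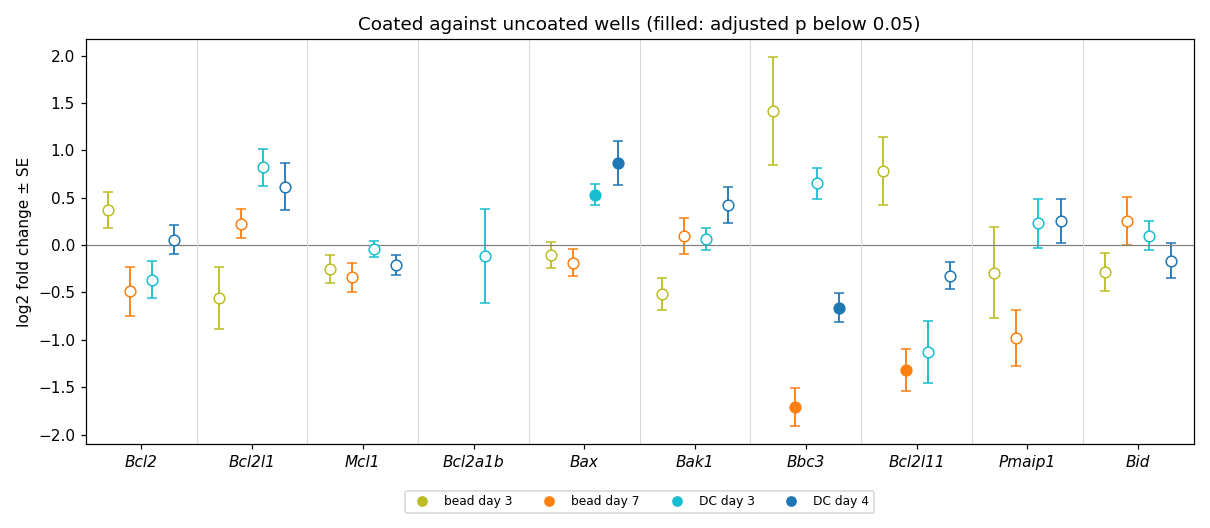
Log2 fold change of each tested member in coated against uncoated wells, with its standard error, for both activations and times; filled points have an adjusted p below 0.05. Bbc3 runs from 1.41 at bead day 3 to -1.71 at bead day 7 and from 0.65 at DC day 3 to -0.66 at DC day 4, and Bax lies above 0 in DC-activated cells only (0.53 and 0.86).

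Other genes of the pathway were read from 6 lists, whose counts were not tested against those of all genes. In the coating comparison at bead day 7, among p53 and its targets 0 of 12 were higher and 1 lower (median log2 fold change -0.42 against -0.0053 over all genes tested), with the antiproliferative gene Btg2 lower (log2 -1.54 ± 0.21, adjusted p = 0.00467). Among other regulators of the family's transcription 0 of 10 were higher and 1 lower (median log2 fold change -0.29 against -0.0053 over all genes tested), and the lower gene was Ddit3, which encodes the stress factor CHOP (log2 -1.69 ± 0.29, 34.7 ± 4.87 against 111 ± 47.5 CPM, adjusted p = 0.0248). Among the apoptosome, caspases and their inhibitors 1 of 16 were higher and 0 lower (median log2 fold change 0.058 against -0.0053 over all genes tested), the higher gene being Birc5, the mitotic protein survivin (log2 0.58 ± 0.13, adjusted p = 0.0455). Of all genes, 1.78% were called in this comparison, and each of these lists held 1 call. No gene of the death receptor pathway (8 tested), of the other family members (6) or of turnover and partner proteins (12) was called there.

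At DC day 4 more of these genes were called between coated and uncoated wells, as were more genes in all (18.4%). Among p53 and its targets 4 of 11 were higher and 1 lower (median log2 fold change 0.42 against -0.0033 over all genes tested). Ccng1, a p53 target that encodes cyclin G1, had 104 ± 49.5 against 40.5 ± 4.48 CPM (log2 1.35 ± 0.30, adjusted p = 0.0146), and Btg2 fell here as well (log2 -0.90 ± 0.21, adjusted p = 0.00955). Cflar, which encodes the caspase 8 inhibitor c-FLIP, had 29.3 ± 3.98 against 42.5 ± 8.52 CPM (log2 -0.55 ± 0.16, adjusted p = 0.0234). Among the apoptosome, caspases and their inhibitors 2 of 17 were higher and 1 lower (median log2 fold change 0.026 against -0.0033 over all genes tested). Among the turnover and partner proteins 2 of 12 were higher and 1 lower (median log2 fold change 0.22 against -0.0033 over all genes tested), among the other regulators 1 of 10 were higher and 1 lower (median log2 fold change -0.054 against -0.0033 over all genes tested), and none of 8 other family members was called. At DC day 3 the single called gene of the 6 lists was the p53 target Zmat3 (log2 0.66 ± 0.13, adjusted p = 0.032), and at bead day 3 no gene of the lists was called.

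Against day 0, at bead day 3, among the other family members, 2 of 7 were higher and 4 lower (median log2 fold change -1.43 against -0.11 over all genes tested), where 64.8% of all genes were called, with the mitophagy receptor Bnip3 higher by 4.03 and its relative Bnip3l lower (log2 -2.82). Bcl2l2, which encodes the guardian BCL-W, was higher at DC day 3 (log2 2.4 ± 0.34) and DC day 4 (2.06 ± 0.34). Birc5 was higher at all 4 times, by 3.18, 2.84, 2.95 and 3.37. Fasl, the ligand of the death receptor Fas, was higher at bead day 7 by 4.02 and at DC day 3 by 2.20. Ddit3 was lower at bead day 3 (log2 -2.59 ± 0.28) and DC day 3 (-2.65 ± 0.20). Every adjusted p of this paragraph was at most 4.16e-05 in edgeR's test.

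Genes of the lists also differed between days. From bead day 3 to day 7, among p53 and its targets 5 of 12 were higher and 0 lower (median log2 fold change 0.84 against 0.018 over all genes tested), where 22.7% of all genes were called, with Cdkn1a, the cell cycle inhibitor p21, at 623 ± 189 against 117 ± 29.7 CPM (log2 2.42 ± 0.29, adjusted p = 0.00056). From DC day 3 to day 4, 1 of 11 were higher and 7 lower (median log2 fold change -0.97 against 0.0069 over all genes tested), where 61% of all genes were called, and Cdkn1a fell (log2 -2.25 ± 0.17, adjusted p = 6e-08). Bmf, another BH3-only gene, rose over that interval from 8.68 ± 3.2 to 59.9 ± 16.5 CPM (SD, n = 4 and 5, log2 2.63 ± 0.24, adjusted p = 2.74e-07). Ddit3 rose over both intervals, by 2.89 in bead-activated and 1.85 in DC-activated cells (adjusted p = 0.00583 and 5.41e-07). Its coating effect also differed between bead day 7 and day 3 (log2 -2.45 ± 0.55, adjusted p = 0.0287).

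For 8 members with a mean of at least 20 CPM, the genes whose log2 CPM was most like theirs over the 45 samples were read off as a description. The samples share groups and depth, so a high Pearson correlation may only reflect shared differences between groups. Bcl2 was most like Pim2, a survival kinase (r = 0.94), Bcl2l1 most like Nop2 (0.931), and Mcl1 most like Pde4b (0.894). Bax was most like the p53 targets Phlda3 (0.862) and Ccng1 (0.858) and then Tmem163 (0.856), and Bak1 most like Ptpn9 (0.902). Bbc3 was most like Adgre5, the adhesion receptor CD97 (0.951), and Map1lc3b, an autophagy gene (0.924). Bcl2l11 was most like Resf1 (0.931) and Nipal3 (0.93), and Bid most like Lif (0.858). No member was among the 3 genes most like another.

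The Bax promoter is shown because Bax was called higher on the coating in both DC settings and the genes most correlated with it include p53 targets. At DC day 3 that call was lost in 12 of 19 alternative runs. A part of p53 in the Bax levels was not tested. The window (chr7:45466849-45467148, minus strand, RefSeq on GRCm38.p6) holds a p53 half-site that begins 201 bases before the start and 2 E-boxes, 9 bases before and 35 bases after it, all in capitals.
Bax: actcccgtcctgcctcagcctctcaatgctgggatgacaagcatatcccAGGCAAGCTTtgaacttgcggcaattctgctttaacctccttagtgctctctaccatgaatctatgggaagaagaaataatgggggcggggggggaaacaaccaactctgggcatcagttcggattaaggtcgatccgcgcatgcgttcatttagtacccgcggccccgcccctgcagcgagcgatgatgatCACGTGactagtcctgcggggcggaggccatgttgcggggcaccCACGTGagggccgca

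The half-site was found in 2745 of 32851 windows of all genes, and the Bax gene lies at chr7:45461697-45466898 on the minus strand (GENCODE vM21, GRCm38).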

How the data were processed

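Bulk MARS-seq reads the 3′ ends of transcripts. Per the submitters' processing notes, bcl2fastq, cutadapt, STAR 2.4.2a, HTSeq and DESeq2 were used with the mm10 build. The authors deposited 1 table: raw counts, as whole numbers, for 14626 genes and 52 libraries, in which every gene reaches 6 counts somewhere. The same table holds the authors' log2 fold changes and adjusted p-values for the 4 coating comparisons, printed only where named. Whether reads of 1 molecule were collapsed is not given in the sources used here. DC libraries of day 3 were summed by M number and coating. Of 142 library pairs within groups none agreed within sampling noise (chi-square per degree of freedom at least 1.93). No label says what an M number is, so a p-value here reflects the spread between samples, which may be technical.

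In 15 comparisons, filterByExpr (minimum count 10, minimum total 15) and TMM preceded edgeR's robust quasi-likelihood F-test (edgeR 4.0.16, R 4.3.3, two-sided), fitted on the groups compared. The 3 differences of coating effects are contrasts over 4 groups. Comparisons of DC day 4 with day 3 use libraries with 120. The test was checked on simulated counts. CPM use TMM factors over the 45 samples, or over the 52 libraries for single libraries and for DC day 4 against day 3. Likeness between genes used log2(CPM + 1) for genes averaging 20 CPM or more.

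The members and all gene lists were chosen with earlier results of these data known. Up to 2 called genes of smallest p per list and comparison, and the 3 genes most like a member, could be named; which of these are printed was chosen after their values were seen. M numbers were taken to pair samples at DC day 4 (correlations of deviations 0.101 to 0.294 over 5 pairs) and in no other coating comparison. The range of these correlations overlapped with that of every other coating comparison. Alternatives were DESeq2's size factors, its Wald test (version 1.42.0), no filter, 1 fit of all groups, a replicate block, libraries with 30 or 120 alone, and samples left out. Tables without marker genes of other cell types and day 0 samples matched by M number were added after seeing the data. Promoter windows are RefSeq's (GRCm38.p6) and gene positions GENCODE vM21's. Values of 1 gene that the rule for named genes picks from the pathway lists are not reported here; it stays in the counts.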

Additional observations from a re-analysis of the deposited data

Results flagged for a closer look

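The coating effect on Bbc3 differed between bead day 7 and day 3 by -3.14 on the log2 scale and that on Bcl2l11 by -2.12, both past the test of the difference itself (adjusted p = 0.0115 and 0.0249, edgeR). The Bbc3 call was lost without uncoated day 3 M number 1. The Bcl2l11 call was lost without any 1 of the 3 uncoated day 3 samples and in other settings named above. Bbc3 had only 6 to 13 counts per sample in uncoated bead day 3. The coating effect on Bbc3 also differed between DC day 4 and day 3 among libraries with 120, by -1.88 (adjusted p = 0.0033, edgeR). Day 3 libraries with the other title number were not part of that test. These days carry different M numbers, so day and M number cannot be told apart.

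A single sample stood far from the rest of its group for 5 of 80 sets of values, and 4 would be flagged by chance. Bak1 was 161 CPM in coated DC day 4 M number 8, where the other 4 samples had 86.0 to 108 CPM. At day 0, Bak1 was 52.7 CPM in M number 8 against 59.7 to 66.3 CPM in the other 8. Bbc3 was 45.5 CPM in coated bead day 3 M number 5, with 12 to 21.5 CPM in the other 4. Bid was 20.5 CPM in uncoated DC day 3 M number 3, with 40.2 to 41.9 CPM in the other 3. Bcl2a1b was 1.84 CPM (3 counts) in coated bead day 7 M number 2 and 0 in the other 3 samples.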

How the results depend on the processing

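The calls against day 0, those between days, and Bbc3 and Bak1 in DCs against beads passed in each alternative run except where the report names the exception and for Mcl1 between DC days, called in 12 of 16. The calls at DC day 3 and the Bcl2l11 calls under the coating rest on few samples. DC day 4 against day 3 could not be fitted with M number as a replicate block, since the days share no M number. With M number as a replicate block, 2 members were called at bead day 3 (Bak1 lower, Bcl2l11 higher), 3 at DC day 3 and 4 at DC day 4. The block gave 1 for the difference of coating effects between bead days and 3 for that between DCs and beads. M numbers were taken to pair samples only at DC day 4. Same-numbered deviations correlated at 0.0336 to 0.159 at bead day 3, -0.117 to 0.375 at bead day 7 and 0.0734 to 0.221 at DC day 3.

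Other settings moved the members called as follows. DESeq2's Wald test called 4 at DC day 3 and 3 for DCs minus beads. All groups in 1 fit called 0 at DC day 3 and 1 at DC day 4, where Bbc3 was lost. Libraries with 120 alone called 0 at DC day 3, and single libraries with title number and M number 2. Libraries with 30 alone called 5 for DCs against beads. Coated libraries alone called 0 for 120 against 30. Without uncoated bead day 7 M numbers 3 and 4, 1 was called at bead day 7 and 1 for the bead days' difference, and without bead day 3 M number 2, 1 for that difference. Leaving out 1 sample gave 1 to 2 members at bead day 7, 0 to 3 at DC day 3, 1 to 3 at DC day 4, 0 to 3 for the bead days' difference and 0 to 3 for DCs minus beads.

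Over all genes, the calls were 9 for bead day 3, 155 for bead day 7, 40 for DC day 3, 1683 for DC day 4, 2051 for uncoated bead day 7 against day 3, 1087 for 120 against 30, 376 for the bead days' difference, 328 for the DC days' difference and 107 for DCs minus beads, where the first 4 compare coated with uncoated wells. The counts that moved by over 1.5 times were as follows. With the replicate block they were 140 for bead day 3, 268 for bead day 7, 121 for DC day 3, 2538 for DC day 4, 1342 for uncoated bead day 7 against day 3, 83 for the bead days' difference and 498 for DCs minus beads. With DESeq2's Wald test they were 53 for bead day 3, 560 for bead day 7, 112 for DC day 3, 644 for the bead days' difference, 501 for the DC days' difference and 345 for DCs minus beads. With all groups in 1 fit they were 2 for bead day 3, 917 for bead day 7, 7 for DC day 3, 605 for the bead days' difference, 151 for the DC days' difference and 52 for DCs minus beads. With no filter on low counts the number was 17 for bead day 3. Without uncoated bead day 7 M numbers 3 and 4 they were 37 for bead day 7, 1213 for uncoated bead day 7 against day 3 and 68 for the bead days' difference. Without bead day 3 M number 2 they were 3 for bead day 3, 1016 for uncoated bead day 7 against day 3, 80 for the bead days' difference and 24 for DCs minus beads. Libraries with 30 alone gave 20 for DC day 3 and 10 for DCs minus beads. Libraries with 120 alone gave 8 for DC day 3 and 18 for DCs minus beads. Coated libraries alone gave 192 for 120 against 30. Without the library with the fewest counts the number was 197 for the DC days' difference. Leaving out 1 sample gave 0 to 33 for bead day 3, 22 to 786 for bead day 7, 1 to 97 for DC day 3, 833 to 1993 for DC day 4, 891 to 2375 for uncoated bead day 7 against day 3, 36 to 878 for the bead days' difference, 71 to 475 for the DC days' difference and 13 to 390 for DCs minus beads.

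These log2 changes turned sign, and of them only Bcl2 in DCs against beads with 30 alone was called. With M number as a replicate block the values were Pmaip1 0.0061 (coating at bead day 3) and Bak1 -0.027 (coating at DC day 3) and Bid -0.071 (DC day 4 against day 0) and Mcl1 -0.041, Bak1 0.12 (bead day 7 against day 3) and Bcl2l11 0.032 (DC against bead, day 3). Without uncoated bead day 7 M numbers 3 and 4 the values were Bak1 -0.036 (coating at bead day 7) and Mcl1 -0.071, Bak1 0.051 (bead day 7 against day 3) and Mcl1 0.077 (coating effect, bead day 7 minus day 3). With DESeq2's Wald test the values were Bcl2a1b 0.028 (coating at DC day 3) and Bcl2l11 0.0044 (bead day 7 against day 0) and Bcl2l1 0.023 (DC day 4 against day 0). In libraries with 30 alone the values were Bcl2 0.39, Bak1 -0.21, Bbc3 -0.015, Bid -0.25 (coating at DC day 3) and Bcl2 -0.80, Bcl2l11 0.27 (DC against bead, day 3) and Bcl2 0.0080, Mcl1 -0.0092 (coating effect, DC minus bead, day 3). In libraries with 120 alone the values were Mcl1 0.059 (coating at DC day 3) and Bcl2l1 -0.21, Bax -0.094 (DC against bead, day 3). In single libraries with the title number as covariate the values were Bcl2 0.0020, Bid -0.00047 (coating at DC day 3). In single libraries with the title number and M number as a replicate block the values were Bcl2 0.16, Bak1 -0.019, Bid -0.019 (coating at DC day 3). With no filter the values were Bcl2l11 0.061 (bead day 7 against day 0). With all groups in 1 fit the values were Bcl2l11 0.020 (bead day 7 against day 0). Without DC day 4 M number 8 the values were Bax -0.033 (DC day 4 against day 0). In coated libraries alone the values were Mcl1 0.0039, Bax 0.031, Bbc3 0.23, Bid 0.024 (120 against 30). In uncoated libraries alone the values were Bak1 -0.28, Pmaip1 -0.21 (120 against 30).

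Leaving out 1 sample also turned signs, over these ranges. Coating at bead day 3 had Pmaip1 -0.60 to 0.22, Bax -0.18 to 0.014. Coating at bead day 7 had Bak1 -0.040 to 0.23. Coating at DC day 3 had Bcl2a1b -0.40 to 0.20, Bak1 -0.020 to 0.15, Mcl1 -0.090 to 0.013, Bid -0.019 to 0.16. Coating at DC day 4 had Bcl2 -0.020 to 0.13. Bead day 7 against day 0 had Bcl2l11 -0.13 to 0.077. DC day 4 against day 0 had Bcl2l1 -0.13 to 0.18, Bax -0.033 to 0.16, Bid -0.037 to 0.16. Bead day 7 against day 3 had Bak1 -0.20 to 0.097. DC day 4 against day 3 had Pmaip1 -0.33 to 0.099. DC against bead, day 3 had Bcl2l1 -0.089 to 0.18, Bcl2 -0.027 to 0.37. Coating effect, bead day 7 minus day 3 had Bax -0.22 to 0.0094. Coating effect, DC day 4 minus day 3 had Bax -0.026 to 0.32, Bak1 -0.069 to 0.23, Bcl2l1 -0.40 to 0.024, Pmaip1 -0.39 to 0.027. Coating effect, DC minus bead, day 3 had Pmaip1 -0.0012 to 0.82.

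Over single members and alternatives, 2529 values kept direction and side of the threshold, 45 came to pass it, 59 no longer passed and 74 changed sign. Bcl2a1b and Pmaip1, with few counts, limit what depth can show. The cause of these changes was not tested.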
